A study of Mus musculus with 4 samples.

Results

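The collagen chain genes are the genes whose symbol is Col, a number, the letter a and a number, taken where all 4 feature lists hold the same Ensembl identifier. There were 44 of them among the 27734 shared genes. They were described in cells of the mouse aorta, from 4 single-cell RNA libraries that count unique molecular identifiers (UMIs, 1 per captured transcript) from the 5′ end of transcripts. The mice were 16 to 20 weeks old. The control libraries came from CNC-SMC-Cre;R26-tdT animals and the cKO libraries from CNC-SMC-Cre;Smad4flox/flox;R26-tdT animals, with 1 library of aortic arch and 1 of descending thoracic aorta for each genotype. All 4 groups therefore carried the Cre and the reporter, and they differed in the floxed Smad4 alleles and in the region. Smad4 is the shared partner of the receptor-activated Smads in TGF-beta and BMP signalling. The labels name the Cre driver CNC-SMC-Cre and do not say which of the cells analysed here had recombined. How many animals went into each library was not stated in the labels.

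Collagens are trimers of chains wound into a triple helix, and each chain has a gene of its own. Fibrillar collagens form the load-bearing fibres of the aortic media and adventitia, type IV forms the network of basement membranes, and the FACIT collagens sit on the surface of fibrils. Beaded-filament collagen VI links cells to the matrix, the short-chain collagens VIII and X form hexagonal networks, and the multiplexins XV and XVIII carry heparan or chondroitin sulphate chains at basement membranes. Collagen VIII is known from injured and remodelling arteries, and collagen X from hypertrophic cartilage.

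Cell classes were gates on summed UMIs of marker genes, with no collagen gene among the markers. Runs of 4 values below give the arch first (cKO, then control) and the descending aorta second (cKO, then control). In that order the gates held 1183, 3450, 1376 and 1133 smooth muscle cells, 422, 1612, 1142 and 864 fibroblasts, and 107, 542, 814 and 585 endothelial cells. Schwann cells numbered 13, 34, 55 and 41 and mesothelial cells 1, 230, 257 and 269, so for these classes the cKO arch library gives no value and runs of 3 values are control arch, cKO descending and control descending. Cells with 10 or more Spp1 UMIs outside the endothelial, Schwann, mesothelial and leukocyte gates (Spp1 10+ cells; Spp1 encodes osteopontin) numbered 317 in the cKO arch library and 8, 0 and 1 in the others. Levels are in CPM, the usual scaling of a gene's UMIs to all UMIs of the summed class, and are shares rather than amounts per cell. Since each UMI marks 1 transcript end, CPM were compared between genes with no scaling by length.

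The libraries themselves differed. They held 49407811, 98866674, 50922575 and 50285593 UMIs, and the cKO arch file lists 28693 features where the others list 32285. Smad4 itself was at 60.2, 72.7, 88.0 and 90.4 CPM in smooth muscle, a 5′ count that a deletion further along the gene need not change, so it does not check the labels. Transcripts of the Y-linked genes Ddx3y, Kdm5d, Uty and Eif2s3y were detected in the control arch library (Ddx3y at 18 CPM in smooth muscle) and were at 0 in the gated smooth muscle, fibroblasts and endothelium of the others, with Xist at 227 to 492 CPM in smooth muscle of all 4. The presence of male cells therefore differs between the arch libraries and between the control libraries. It cannot be told apart from genotype in the arch, nor from region in control. Of the barcode sequences, 216 to 263 per library also occur in another library. Lymphocytes, which make next to no collagen, held 0.0554, 0.0319, 0.0211 and 0.0279% of their UMIs in collagen chains, and a level under 3 times theirs per cell is treated as free RNA.

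Collagen chains took the largest share of UMIs in fibroblasts, at 2.54, 1.84, 2.24 and 3.41% of all UMIs of the class. Smooth muscle was at 0.719, 0.844, 0.717 and 1.02%, endothelium at 0.347, 0.244, 0.197 and 0.24%, Schwann cells at 1.03, 1.16 and 1.86% and mesothelial cells at 0.665, 0.562 and 0.814%. The control descending library had the highest share of the 4 in smooth muscle and fibroblasts. Of the 44 chains, 33 reached 20 CPM in a gated class of some library. These were 9 of 11 fibrillar chains, 6 of 6 type IV chains, 3 of 3 short-chain ones, 5 of 9 FACIT chains, 5 of 6 type VI chains, 1 of 4 transmembrane chains, 2 of 2 multiplexins, and Col26a1 and Col28a1. The chain of anchoring fibrils, Col7a1, stayed at or below 1.39 CPM in all 6 classes. The other chains below 20 CPM were Col11a2 and Col24a1, the FACIT chains Col9a1, Col9a2, Col19a1 and Col22a1, Col6a4, and the transmembrane chains Col13a1, Col17a1 and Col25a1.

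**Figure D1:**
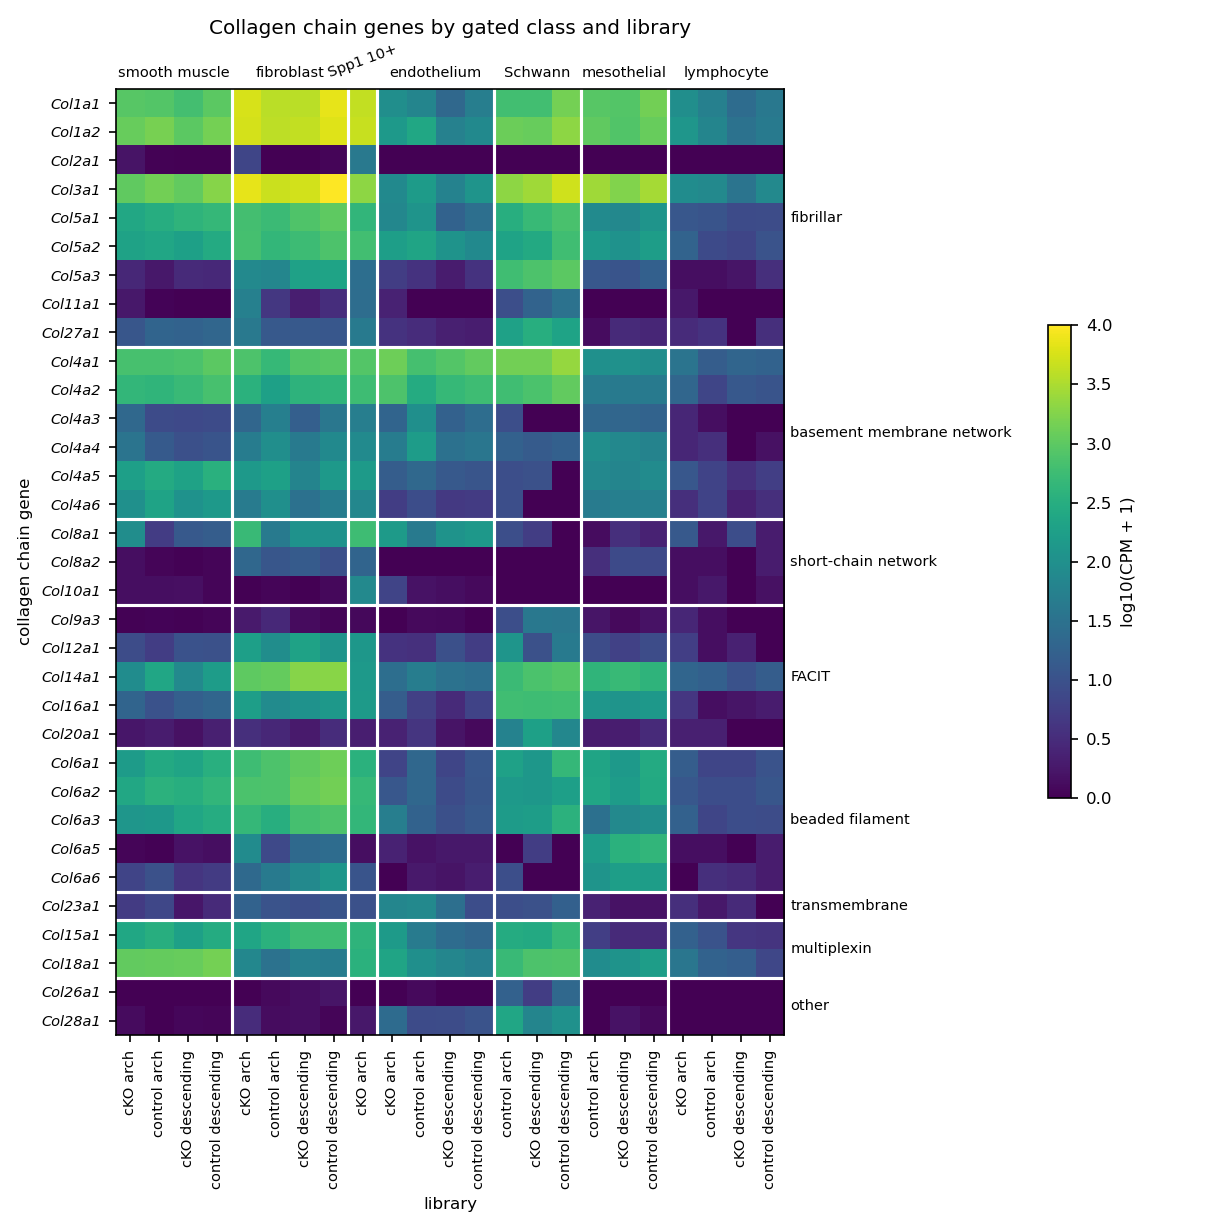
Levels of the 33 collagen chain genes that reach 20 CPM, as log10(CPM + 1), by gated class and library, for classes of at least 20 cells. The chains of collagens I and III are brightest in fibroblasts, Col18a1 in smooth muscle, and Col5a3, Col16a1, Col20a1, Col27a1 and Col28a1 in Schwann cells.

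The mix of collagens differed between classes. Fibrillar chains took 67.5 to 78.5% of the collagen UMIs of fibroblasts, 46.2 to 51.2% of those of smooth muscle and 13.5 to 32.8% of those of endothelium, where Col1a1 and Col3a1 are at free-RNA levels. Type IV chains took 51 to 72.7% of the collagen UMIs of endothelium against 4.81 to 6.12% in fibroblasts and 19 to 22.1% in smooth muscle. Multiplexins took 17.1 to 19% of the collagen UMIs of smooth muscle and 1.16 to 2.67% of those of fibroblasts. For fibrillar and type IV chains the ranges of the 3 classes do not overlap.

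Of the 33 chains tested between fibroblasts and smooth muscle of the same library, 22 were higher in fibroblasts and 4 lower, by edgeR's quasi-likelihood test over 4 libraries with library as a block. A call needed an adjusted p under 0.05 and a 2-fold difference, which 27.1% of all genes tested met (16.1% higher and 11% lower). The median log2 fold change of the chains was 1.92, against 0.00 over all genes tested. The higher chains were Col6a5, Col5a3, Col8a2, Col11a1, Col12a1, Col14a1, Col6a6, Col9a3, Col16a1, Col8a1, Col1a1, Col3a1, Col4a4, Col1a2, Col23a1, Col6a1, Col4a3, Col6a2, Col6a3, Col5a2, Col5a1 and Col20a1. The 4 lower chains were Col18a1, Col4a6 and 2 FACIT chains of low level, Col19a1 and Col22a1. Without cKO arch the Col5a1 difference was 0.99 on the log2 scale and under the fold. The calls of Col4a3 and Col20a1 were lost without cKO descending (adjusted p = 0.086 and 0.062), without control arch (0.12 and 0.058) and without control descending (0.15 and 0.075), that of Col20a1 also without cKO arch (0.051), and that of Col23a1 without control descending (0.054).

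Between endothelium and smooth muscle, 5 of 30 chains tested were higher in endothelium and 16 lower, where 32.9% of all genes were called (17.4% higher and 15.5% lower). The median was -1.94 against -0.02 over all genes. Higher were Col28a1, Col23a1, Col8a1, Col4a4 and Col4a3. Lower were Col19a1, Col6a2, Col4a6, Col6a1, Col4a5, Col1a1, Col3a1, Col18a1, Col1a2, Col6a3, Col27a1, Col5a1, Col6a6, Col15a1, Col14a1 and Col16a1. The Col4a3 call was lost without cKO descending (adjusted p = 0.077), without control arch (0.065) and without control descending (0.096).

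Between Schwann cells and fibroblasts, over 3 libraries, 9 of 32 chains were higher in Schwann cells and 18 lower, where 23.3% of all genes were called (9.17% higher and 14.1% lower). The median was -1.30, or -1.10 with Col8a2, which had no UMI in Schwann cells, at its bound, against -0.14 over all genes. The higher chains were Col28a1, Col20a1, Col9a3, Col26a1, Col27a1, Col18a1, Col11a1, Col16a1 and Col5a3, and the lower ones Col8a2, Col6a6, Col4a6, Col8a1, Col4a5, Col4a3, Col6a5, Col6a2, Col1a1, Col4a4, Col6a1, Col1a2, Col12a1, Col6a3, Col14a1, Col3a1, Col5a2 and Col5a1. Between mesothelial cells and fibroblasts 3 of 29 chains were higher in mesothelial cells and 19 lower, with 24.1% of all genes called (12.1% higher and 12% lower) and a median of -2.32 against -0.01. The higher chains were Col6a4, Col6a5 and Col18a1, and the lower ones Col15a1, Col11a1, Col8a1, Col12a1, Col5a3, Col23a1, Col6a3, Col5a1, Col27a1, Col4a1, Col4a2, Col6a2, Col6a1, Col1a2, Col1a1, Col5a2, Col14a1, Col3a1 and Col8a2. For Schwann cells edgeR used 1 spread shared by all genes (infinite prior degrees of freedom), and its p-values are given here only as past or not past 0.05. In that fit, the calls of Col8a2 and Col12a1 (the latter at -0.86 on the log2 scale) were lost without cKO descending, those of Col6a5 (-2.90) and Col11a1 (2.45) without control descending, and that of Col5a1 (-0.98) without control arch. In the mesothelial fit the Col11a1 call was lost without cKO descending (adjusted p = 0.058), and that of Col8a2 without any 1 of the 3 libraries (0.18, 0.053 and 0.057 without cKO descending, control arch and control descending).

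**Figure D2:**
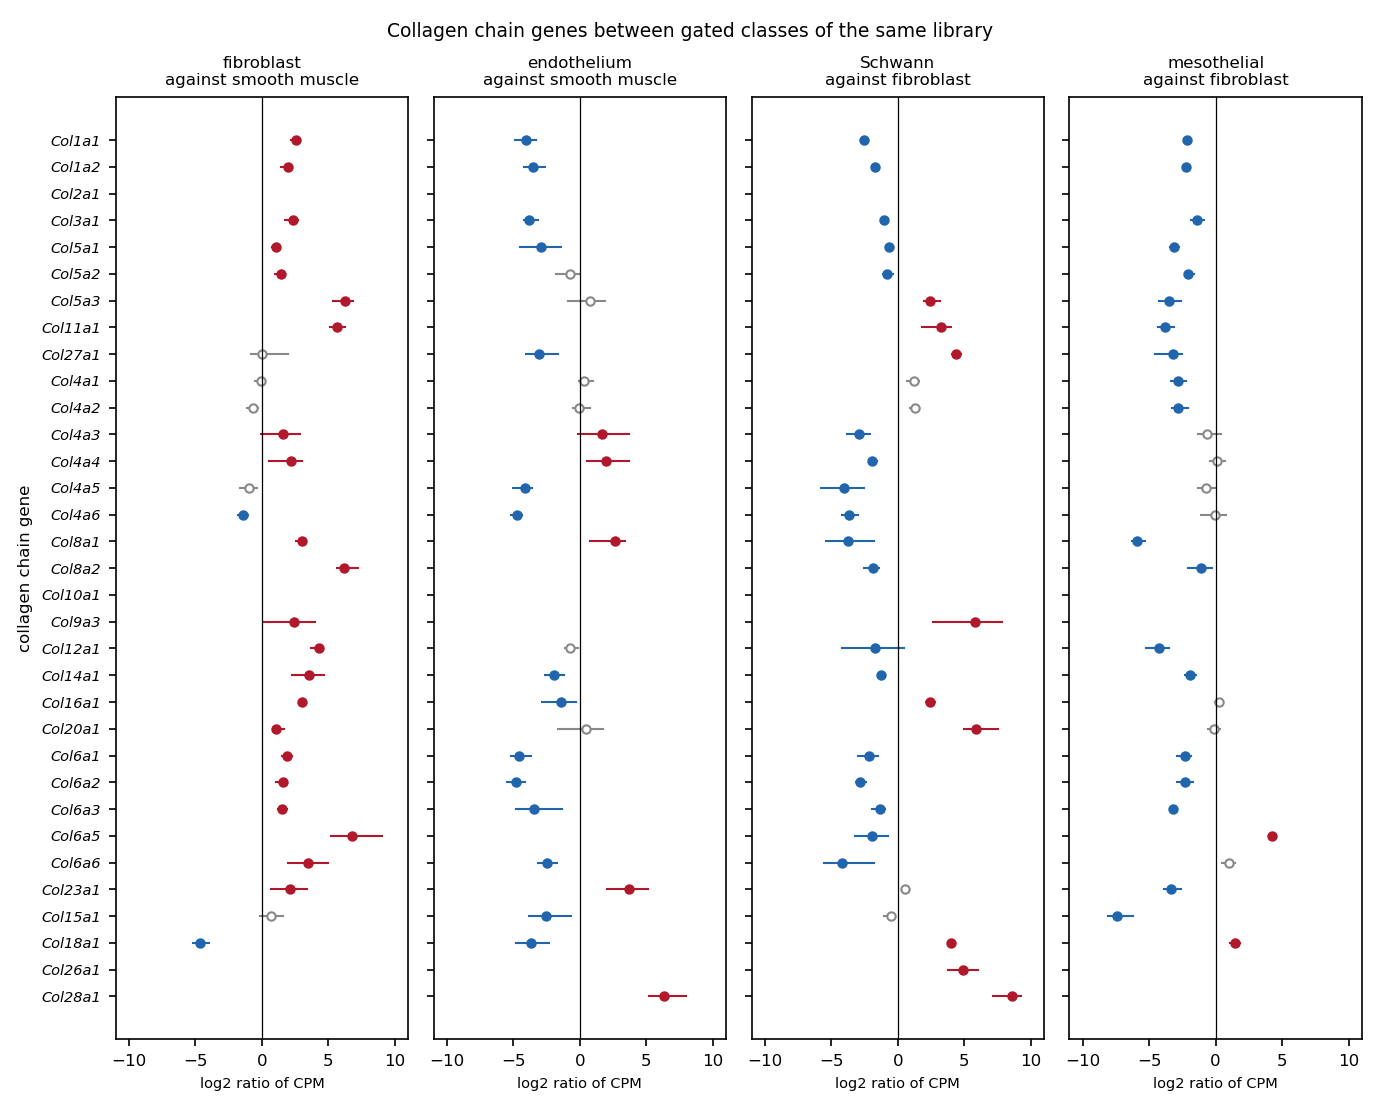
Log2 ratio of CPM between classes of the same library for the collagen chain genes at 20 CPM or more. Points are means over libraries (4, 4, 3 and 3 from left to right), lines run from the lowest to the highest library, and filled points passed edgeR's test and the 2-fold limit (red higher, blue lower); most chains lie right of 0 in the first panel and left of 0 in the last.

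Among the fibrillar chains, those of collagens I and III were the most abundant. Col1a1 was at 5679, 3785, 3882 and 7023 CPM in fibroblasts and 913, 848, 629.5 and 968 CPM in smooth muscle, with a log2 fold change of 2.57 and adjusted p = 0.00013 by edgeR. Col3a1 was at 7150.3, 4793, 5343 and 10369 CPM in fibroblasts and 1070.3, 1409.8, 1088 and 1867 CPM in smooth muscle, with a log2 fold change of 2.32 and adjusted p = 0.00031. For both genes every fibroblast value lay above every smooth muscle value. In Schwann cells Col3a1 was at 2117, 2713 and 5095 CPM and in mesothelial cells at 2667, 1743 and 2921 CPM, so it was the most abundant chain of both classes. Summed fibroblast markers were at 4110, 4578 and 4371 CPM in Schwann cells and 7044, 7636 and 11743.5 CPM in mesothelial cells. In lymphocytes they were at 145 to 288 CPM. The part of fibroblast RNA in the collagen levels of these 2 gates was not tested. In endothelium Col1a1 was at 92.1, 65.8, 21.6 and 50.5 CPM, under 3 times the lymphocyte level per cell in all 4 libraries, as was Col3a1, and neither is read as endothelial expression.

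The genotype differences of these chains had opposite signs by region in fibroblasts. Col1a1 had a log2 ratio of cKO to control of 0.59 (95% counting interval 0.56 to 0.61) in the arch against -0.86 (95% counting interval -0.87 to -0.84) in the descending aorta, and Col3a1 0.58 and -0.96. None of these reached 2-fold. The cKO arch values lean on few cells, since 10 of its 422 fibroblasts held 37.3% of the Col3a1 UMIs and 23.8% of those of Col1a1. In control arch 10 of 1612 fibroblasts held 7.31 and 8.4%. Since 10 cells are unlike shares of these classes, the percentages are not compared between libraries. The control descending library was the highest of the 4 for Col3a1 in smooth muscle and fibroblasts and of the 3 in Schwann and mesothelial cells. In lymphocytes, where it marks free RNA, Col3a1 was at 87.9, 74.7, 33.6 and 75.5 CPM.

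The chains of collagen V regulate the width of fibrils. Col5a3, the chain found in few tissues, was at 599, 768 and 984 CPM in Schwann cells, 75.3, 67.5, 193 and 211 CPM in fibroblasts and 1.79, 0.794, 2.03 and 1.84 CPM in smooth muscle. It was higher in fibroblasts than in smooth muscle (6.34 on the log2 scale, adjusted p = 5.4e-05) and higher again in Schwann cells (2.04 against fibroblasts). Col5a1 and Col5a2, the common chains, were lower in Schwann cells than in fibroblasts, with log2 fold changes of -1.03 and -1.17 with TMM scaling, and missed the 2-fold limit at -0.65 and -0.80 with scaling by total UMIs. Col27a1 was at 197, 320.4 and 212 CPM in Schwann cells, 40.9, 12.1, 12 and 11.2 CPM in fibroblasts and 10.8, 18.3, 17.2 and 19.8 CPM in smooth muscle, a log2 fold change of 4.01 against fibroblasts.

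Col11a1, a fibrillar chain typical of cartilage, was at 54.6, 3.48, 1.16 and 2.3 CPM in fibroblasts, 8.2, 17.6 and 31.7 CPM in Schwann cells and 25.8 CPM in Spp1 10+ cells. The cKO arch fibroblasts stood far above the other 3 libraries, with a log2 ratio to control arch of 3.96 (95% counting interval 3.52 to 4.44), from 227 against 50 UMIs. Of those 227 UMIs, 58.1% lay in the 10 cells with the most.

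The type IV genes lie in 3 head-to-head pairs, transcribed away from each other, in mm10 coordinates. Col4a1 (chr8:11198423-11312826, minus strand) and Col4a2 (chr8:11312805-11449287, plus strand) overlap by 22 bases, Col4a3 and Col4a4 on chromosome 1 lie 71 bases apart, and Col4a5 and Col4a6 on chromosome X lie 1308 bases apart. The promoter windows of the first pair, 250 bases before to 50 after each RefSeq start, are shown because they share bases and belong to the most abundant type IV chains of smooth muscle, fibroblasts and endothelium. They are RefSeq sequence on GRCm38.p6 at chr8:11312777-11313076, minus strand, for Col4a1 and chr8:11312555-11312854, plus strand, for Col4a2. Capitals mark the 78 bases that both windows hold, read from opposite strands.
Col4a1: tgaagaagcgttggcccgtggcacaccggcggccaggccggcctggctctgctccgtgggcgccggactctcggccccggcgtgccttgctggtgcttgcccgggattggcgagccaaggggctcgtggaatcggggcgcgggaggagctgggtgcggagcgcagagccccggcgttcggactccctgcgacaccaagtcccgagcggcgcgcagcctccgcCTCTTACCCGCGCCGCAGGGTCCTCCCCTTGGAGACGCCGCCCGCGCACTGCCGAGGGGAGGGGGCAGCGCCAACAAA
Col4a2: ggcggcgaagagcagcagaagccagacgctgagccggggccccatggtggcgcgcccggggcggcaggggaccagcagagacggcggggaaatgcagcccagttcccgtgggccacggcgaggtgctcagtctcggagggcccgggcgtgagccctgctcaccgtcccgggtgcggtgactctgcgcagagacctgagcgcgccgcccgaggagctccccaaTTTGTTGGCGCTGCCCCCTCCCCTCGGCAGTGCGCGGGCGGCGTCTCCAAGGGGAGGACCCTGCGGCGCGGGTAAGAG

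Col4a1, whose chain joins with that of Col4a2 in nearly all basement membranes, was at 677, 679, 744 and 965 CPM in smooth muscle, 772, 477, 834 and 916 CPM in fibroblasts, 1324, 664, 862 and 1095 CPM in endothelium and 1419, 1383 and 2291 CPM in Schwann cells. Mesothelial cells were far lower, at 101, 105 and 89 CPM. The levels of smooth muscle, fibroblasts and endothelium overlapped, and the fold changes of fibroblasts (-0.05, adjusted p = 0.78) and endothelium (0.16, adjusted p = 0.4) against smooth muscle were not past the test. Mesothelial cells had a log2 fold change of -3.0 and adjusted p = 0.00049 against fibroblasts, and Col4a2 -2.99. The UMIs of Col4a2 per UMI of Col4a1 were 0.654, 0.617, 0.691 and 0.712 in smooth muscle and 0.467, 0.396, 0.462 and 0.451 in fibroblasts, ranges that do not overlap.

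The second pair differed. Col4a3 was at 21.2, 7.3, 6.67 and 7.07 CPM in smooth muscle, 19.7, 53, 15 and 37.4 CPM in fibroblasts and 18.4, 97, 16.5 and 26.3 CPM in endothelium, and Col4a4 at 33.2, 12.5, 8.41 and 9.96 CPM, 46.7, 93.1, 44.3 and 79.5 CPM and 46.8, 162, 29.9 and 36.7 CPM. Their chains belong to the specialised network of kidney, lung and ear. In the arch the genotype difference had opposite signs by class. Smooth muscle of the cKO arch library was higher than control by 1.54 (95% counting interval 1.32 to 1.75) for Col4a3 and 1.41 (95% counting interval 1.24 to 1.57) for Col4a4 on the log2 scale. Fibroblasts had -1.42 (95% counting interval -1.77 to -1.09) and -0.99 (95% counting interval -1.22 to -0.78), and endothelium -2.34 (95% counting interval -3.32 to -1.60) and -1.77 (95% counting interval -2.34 to -1.28). In the descending aorta the same ratio of Col4a3 was -0.08 in smooth muscle, -1.31 in fibroblasts and -0.67 in endothelium.

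Of Col4a5 and Col4a6, the X-linked pair, Col4a6 was at 103, 204, 109.7 and 147 CPM in smooth muscle, 44.5, 96.4, 30.6 and 47.4 CPM in fibroblasts and 4.25, 7.95, 3.67 and 3.99 CPM in endothelium, where 3 of the 4 values were under 3 times the lymphocyte level. It was lower in fibroblasts (-1.43, adjusted p = 0.00051) and in endothelium (-5.03, adjusted p = 1.5e-06) than in smooth muscle. Col4a5 was at 178, 279.9, 201 and 345 CPM in smooth muscle and 138, 185, 63.3 and 145 CPM in fibroblasts, a fold change of -0.97 that missed the 2-fold limit. The control arch library, the one with Y-linked transcripts, had the highest Col4a6 of the 4 in smooth muscle, fibroblasts and endothelium.

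Col8a1, the main chain of collagen VIII, held the largest genotype difference of the chains in smooth muscle. Its RefSeq promoter window (GRCm38.p6, chr16:57754688-57754987, minus strand) is shown for that reason, with the CAGAC match in capitals. CAGAC holds the Smad binding element core and occurs, on either strand, in 49.6% of 32817 promoter windows of the same length and in 20 of the 38 windows of collagen chain genes, so its presence is a description only.
Col8a1: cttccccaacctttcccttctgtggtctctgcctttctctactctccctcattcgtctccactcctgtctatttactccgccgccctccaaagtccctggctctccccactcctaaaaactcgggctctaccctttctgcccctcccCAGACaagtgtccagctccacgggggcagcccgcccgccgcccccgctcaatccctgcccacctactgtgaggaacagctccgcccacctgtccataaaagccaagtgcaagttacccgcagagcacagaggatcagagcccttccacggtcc

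Col8a1 was at 89.3, 4.12, 11.9 and 14 CPM in smooth muscle, 514, 41.9, 108 and 110.1 CPM in fibroblasts, 149, 44, 111 and 132 CPM in endothelium and 579 CPM in Spp1 10+ cells. The cKO arch library was the highest and the control arch library the lowest in all 3 classes that the 4 libraries share. The log2 ratio of cKO to control in the arch was 4.43 (95% counting interval 4.23 to 4.65) in smooth muscle, 3.62 (95% counting interval 3.48 to 3.75) in fibroblasts and 1.76 (95% counting interval 1.39 to 2.13) in endothelium. In the descending aorta it was -0.23, -0.02 and -0.25. A Col8a1 UMI was found in 30.9% of cKO arch smooth muscle cells and 3.07% of control arch ones, at median depths of 11537 and 14099 UMIs per cell. Lymphocytes were also higher in both cKO libraries, at 12.1, 0.821, 7.9 and 1.01 CPM, and with the lymphocyte level per cell taken off the smooth muscle ratio was 4.47. Of the Col8a1 UMIs of cKO arch endothelium, 81.9% lay in 10 of its 107 cells.

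The control libraries alone had less Col8a1 in the arch than in the descending aorta, with log2 ratios of -1.76 (95% counting interval -2.04 to -1.49) in smooth muscle, -1.39 (95% counting interval -1.54 to -1.25) in fibroblasts and -1.59 (95% counting interval -1.86 to -1.33) in endothelium. Over the 4 libraries Col8a1 was higher in fibroblasts (3.0, adjusted p = 9.6e-05) and endothelium (2.54, adjusted p = 0.0046) than in smooth muscle. Its partner Col8a2 was at 20.4, 10.9, 12.9 and 8.4 CPM in fibroblasts and had no UMI in endothelium, where Col8a1 had 105 to 545 UMIs per library.

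**Figure D3:**
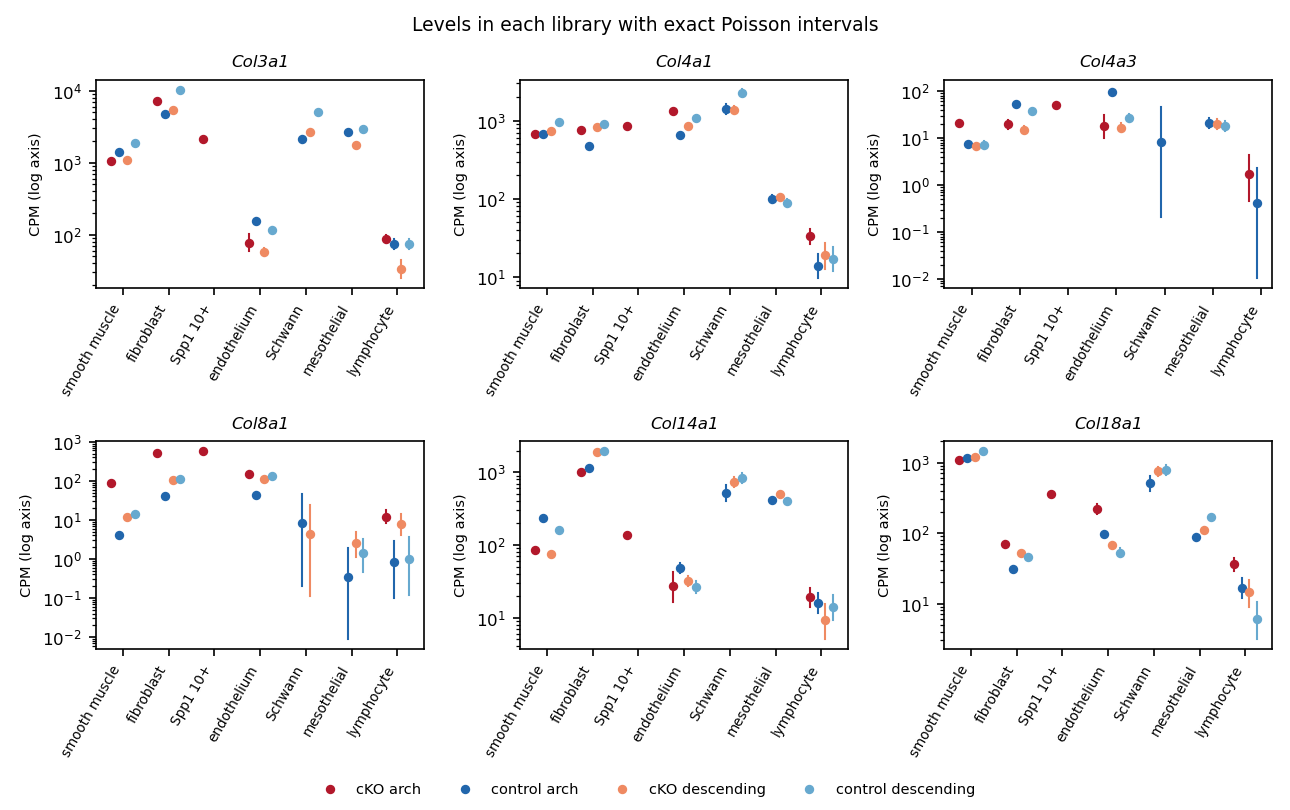
CPM of 6 collagen chain genes in each gated class (log axis), 1 point per library with its exact Poisson interval; values of 0 and classes under 20 cells are not drawn. Col8a1 in the cKO arch library (dark red) lies above the other libraries in smooth muscle and fibroblasts, and Col18a1 is highest in smooth muscle.

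Among the FACIT chains, Col14a1, a fibril-associated chain abundant in adventitia, was at 1013, 1136, 1898 and 1973 CPM in fibroblasts and 86.3, 233, 74.1 and 162 CPM in smooth muscle, with a log2 fold change of 3.54 and adjusted p = 0.0012. It was the chain that differed between genotypes in the same direction and past 2-fold in smooth muscle of both regions. The log2 ratio of cKO to control was -1.43 (95% counting interval -1.51 to -1.35) in the arch against -1.13 (95% counting interval -1.23 to -1.03) in the descending aorta. In fibroblasts the same ratios were -0.16 and -0.06. A Col14a1 UMI was found in 43.7, 79.3, 35.1 and 58.6% of smooth muscle cells, so both cKO libraries lay below both control libraries. Summed fibroblast markers in smooth muscle ran the same way, at 759, 1097, 648 and 808 CPM, and their part in the result was not tested.

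Col12a1 and Col16a1, of the same class, were also higher in fibroblasts than in smooth muscle. Col12a1 was at 178, 90.4, 199 and 117 CPM in fibroblasts against 7.63, 4.31, 9.28 and 8.85 CPM in smooth muscle (4.28, adjusted p = 3.5e-05). Col16a1 was at 599, 566 and 582 CPM in Schwann cells, 175, 84.6, 109 and 137 CPM in fibroblasts and 18.1, 9.12, 15 and 19.4 CPM in smooth muscle, higher in fibroblasts by 3.04 (adjusted p = 3.0e-05) and in Schwann cells above fibroblasts by 2.04. Col19a1, at 7.95, 4.6, 14.8 and 10.2 CPM in smooth muscle, was at or below 0.481 CPM in fibroblasts, with a log2 fold change of -5.89 and adjusted p = 0.0004. Col20a1 was at 57.4, 184 and 68.8 CPM in Schwann cells and at most 2.41 CPM in fibroblasts, and Col9a3 at 8.2, 39.5 and 37 CPM in Schwann cells, from 1, 9 and 7 UMIs.

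Collagen VI is made of the Col6a1, Col6a2 and Col6a3 chains, or of Col6a1 and Col6a2 with 1 of the later chains. Col6a1 was at 578, 769, 1044 and 1307 CPM in fibroblasts and 155, 272, 219 and 328 CPM in smooth muscle, with a log2 fold change of 1.92 and adjusted p = 0.00029. Col6a2 and Col6a3 were higher in fibroblasts by 1.56 and 1.49 (adjusted p = 0.00077 and 0.00031). In endothelium these 3 chains were lower than in smooth muscle, with log2 fold changes of -4.71, -5.03 and -3.68, and most of their endothelial levels were under 3 times the lymphocyte level.

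Col6a5, Col6a6 and Col6a4 neighbour each other on chromosome 9, and the first was higher in mesothelial cells than in fibroblasts. Col6a5 was at 160.4, 356 and 430.0 CPM in mesothelial cells and 84.7, 6.69, 22.2 and 25 CPM in fibroblasts, with a log2 fold change of 4.08 and adjusted p = 6.1e-05. Col6a6 was at 115, 175 and 169 CPM and 21.9, 42.6, 76.5 and 124 CPM, a fold change of 0.89 that missed the 2-fold limit. Col6a4 was at 3.13, 3.64 and 5.01 CPM in mesothelial cells from 40 UMIs and had no UMI in the fibroblasts of the same libraries, which makes it at least 43.2-fold higher against a floor of 3 counts over the group. Lymphocytes of the descending libraries also held Col6a4, at 3.29 and 8.56 CPM, and the mesothelial levels there were under 3 times theirs per cell. Smooth muscle held 3 Col6a4 UMIs. Whether the lymphocyte level marks free RNA for this gene was not tested. The Col6a5 of cKO arch fibroblasts, 3.66 (95% counting interval 3.33 to 4.0) above control on the log2 scale, rested on few cells, with 95.5% of its UMIs in 10 of 422 cells.

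The multiplexin Col18a1, source of endostatin, was among the 3 most abundant chains of smooth muscle in every library. It was at 1099, 1146, 1180.0 and 1463 CPM in smooth muscle, 69.5, 31.2, 51.7 and 46 CPM in fibroblasts, 217, 96.8, 67.4 and 52.9 CPM in endothelium and 509, 751 and 788 CPM in Schwann cells. The control arch fibroblast value was under 3 times the lymphocyte level per cell. Fibroblasts had a log2 fold change of -4.67 and adjusted p = 7.8e-05 against smooth muscle, and endothelium -3.89 (adjusted p = 0.00019). Schwann cells were above fibroblasts by 3.62 with TMM scaling, and mesothelial cells by 1.35 (adjusted p = 0.0019). For Schwann cells the log2 ratios of CPM, which lack that scaling, had an SD of 0.12 between libraries and lay above 3.62. Col15a1 was at 244, 321, 185 and 290.1 CPM in smooth muscle and 225, 354, 548 and 573 CPM in fibroblasts, which the test did not separate (adjusted p = 0.13), and at 4.52, 1.96 and 1.95 CPM in mesothelial cells, under 3 times the lymphocyte level per cell.

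The transmembrane chain Col23a1 was at 66.6, 74.3, 27.7 and 7.97 CPM in endothelium and 4.04, 6.05, 0.754 and 1.97 CPM in smooth muscle, with a log2 fold change of 3.54 and adjusted p = 0.00048. The arch endothelium was above the descending one in both genotypes, by 3.20 (95% counting interval 2.67 to 3.82) in control and 1.28 (95% counting interval 0.76 to 1.75) in cKO on the log2 scale. Col28a1, a chain of peripheral nerve, was at 229.7, 65.8 and 106 CPM in Schwann cells and at most 2.16 CPM in fibroblasts (8.28 on the log2 scale). In the control arch and control descending libraries 92.9 and 95% of its Schwann cell UMIs lay in 10 cells. It was at 24.1, 7.09, 7.54 and 9.57 CPM in endothelium against at most 0.32 CPM in smooth muscle (6.20, adjusted p = 7.0e-05). Col26a1 was at 16.4, 4.39 and 21.2 CPM in Schwann cells, and below 1 CPM in the other 5 classes.

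With 1 library per group, differences between genotypes and regions were described by size, with no test; a chain counted at 2-fold or more where the compared libraries summed to 50 or more UMIs. In smooth muscle of the arch 5 of 28 chains were higher in cKO and 1 lower, where 12.7% of all genes passed the fold (4.54% higher and 8.16% lower). The 5 were Col8a1, Col4a3, Col4a4, Col5a3 and Col11a2 and the lower one was Col14a1. The median was -0.16 against -0.13 over all genes. With free RNA taken off 4 of 26 chains were higher and 1 lower, where 25.9% of all genes passed. Over the control arch and descending libraries Col11a2 averaged 1.01 CPM in smooth muscle, 2.61 CPM in fibroblasts and 2.61 CPM in lymphocytes. Its differences, here and in fibroblasts below, are thus at levels near those of lymphocytes. In the descending aorta Col14a1 alone of 24 chains passed, and it was lower, where 1.19% of all genes passed (0.503% higher and 0.682% lower). Of those 24 chains 21 had a negative ratio, with a median of -0.37 against -0.03 over all genes.

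In fibroblasts of the arch 6 of 28 chains were higher in cKO (Col11a1, Col6a5, Col8a1, Col27a1, Col18a1 and Col16a1) and 3 lower (Col11a2, Col4a3 and Col4a6), where 13.1% of all genes passed (4.66% higher and 8.4% lower), with a median of 0.55. Of the Col18a1 UMIs of cKO arch fibroblasts 37% lay in 10 of 422 cells. In control arch 13.2% lay in 10 of 1612 cells, an unlike share of the class, so the percentages are not compared. The fibroblasts themselves differed between those libraries. Their summed fibroblast markers were at 21532 CPM in cKO arch and 49924, 47719 and 52045 CPM in the others, and 33.4% of cKO arch fibroblasts held 5 or more Pi16 UMIs against 73.0, 72.9 and 79.1%. Pi16 marks adventitial fibroblasts of the outer layer, and its part in the result was not tested. Within the libraries, fibroblasts with 5 or more Pi16 UMIs differed from those with none past the threshold in 1 of 27 chains, Col14a1, which was higher by 1.59 (adjusted p = 0.0026), where 3.3% of all genes were called (1.72% higher and 1.58% lower). Without cKO arch 9 chains were called in that comparison, 3 higher and 6 lower, where 4.16% of all genes were called. In the descending aorta 2 of 26 chains passed the fold in fibroblasts, both lower in cKO (Col4a3 and Col4a5), where 1.4% of all genes passed (0.573% higher and 0.829% lower).

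In endothelium of the arch 5 of 18 chains were higher in cKO (Col8a1, Col15a1, Col6a3, Col4a2 and Col18a1) and 3 lower (Col4a3, Col4a4 and Col6a1), where 8.76% of all genes passed (2.39% higher and 6.37% lower). The higher values rest on few of the 107 cKO cells. The 10 cells with the most held 81.9% of the Col8a1 UMIs, 76.6% of those of Col15a1, 85.7% of Col6a3, 49.4% of Col4a2 and 60.1% of Col18a1. With free RNA taken off, 5 chains were higher and 8 lower of 18, where 30% of all genes passed. In the descending aorta Col23a1 was higher and Col1a1, at its free-RNA level, lower, 2 of 20 chains, where 2.44% of all genes passed (1.04% higher and 1.39% lower).

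**Figure D4:**
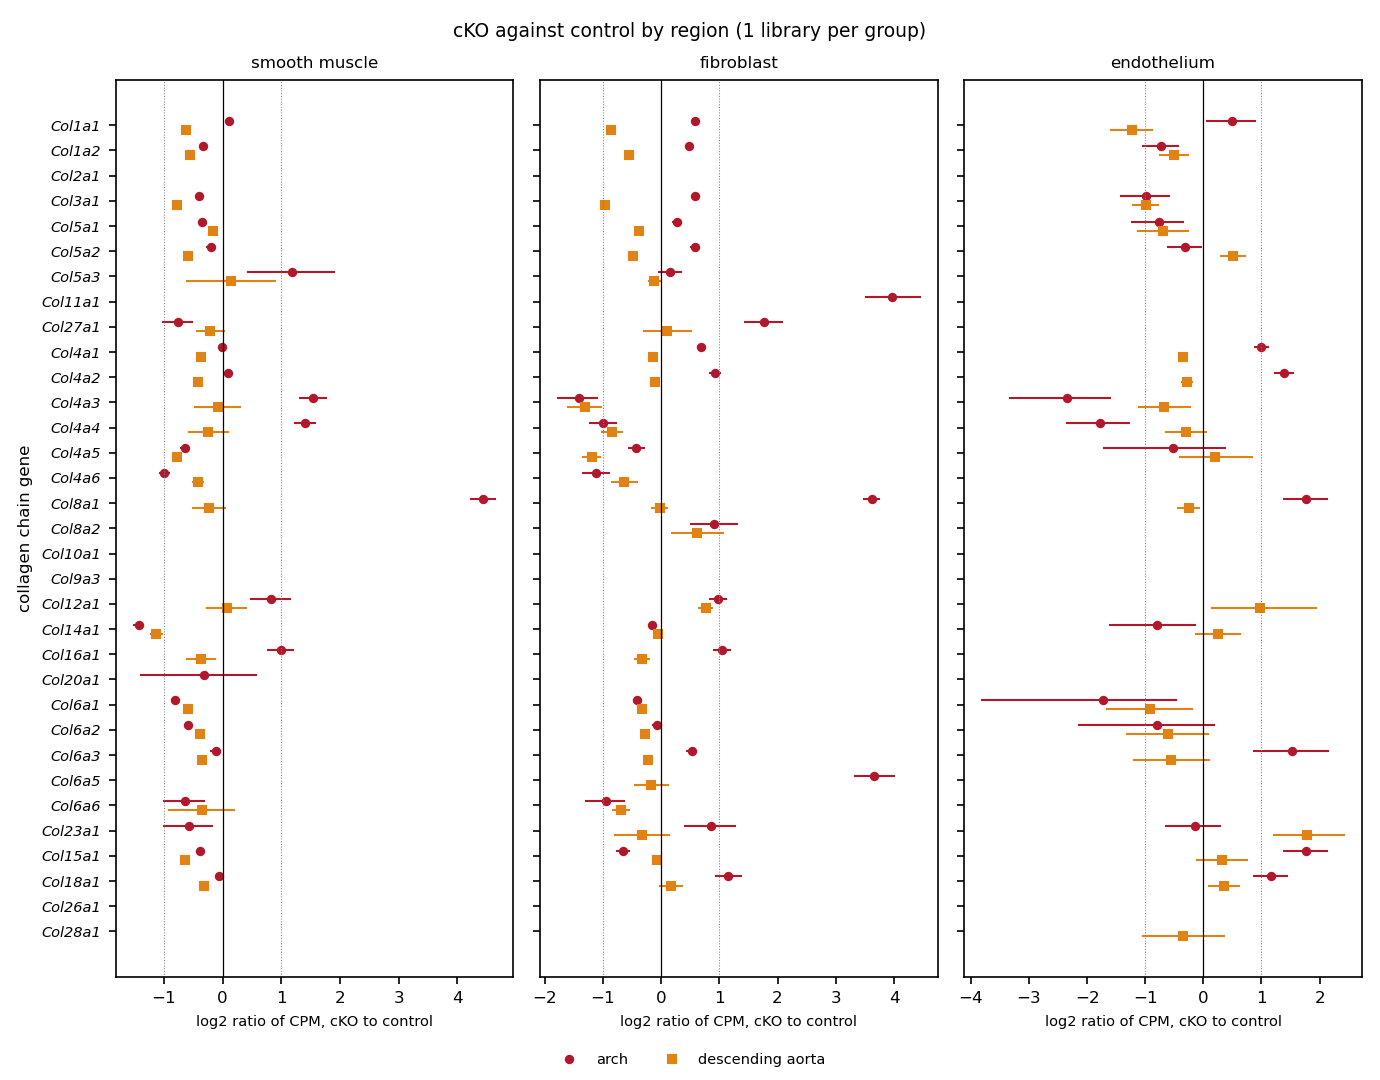
Log2 ratio of CPM, cKO to control, in the arch (circles) and descending aorta (squares) for chains that summed to 50 or more UMIs over the compared libraries, with 95% counting intervals; each point compares 2 libraries. Dotted lines mark 2-fold, and Col8a1 in smooth muscle, at 4.43 in the arch against -0.23 in the descending aorta, is the point furthest from its partner.

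Between regions, smooth muscle of the control arch had 2 of 28 chains higher than the descending one (Col23a1 and Col6a6) and 6 lower (Col8a1, Col5a3, Col19a1, Col6a3, Col16a1 and Col12a1), where 7.18% of all genes passed (3.5% higher and 3.68% lower). In cKO 4 of 25 were higher (Col8a1, Col23a1, Col4a4 and Col4a3) and none lower, where 12.1% passed (4.47% higher and 7.6% lower). Fibroblasts of the control arch had 2 of 28 chains higher (Col11a2 and Col4a6) and 7 lower (Col6a5, Col5a3, Col6a6, Col8a1, Col6a3, Col4a2 and Col3a1), Col3a1 with a log2 ratio of -1.11 (95% counting interval -1.13 to -1.10), where 7.13% of all genes passed (4.43% higher and 2.7% lower). In cKO fibroblasts 6 of 27 were higher (Col11a1, Col8a1, Col6a5, Col27a1, Col4a5 and Col23a1) and 3 lower (Col6a6, Col5a3 and Col15a1), where 13.9% passed (5.55% higher and 8.31% lower). Endothelium had 8 of 19 chains higher in the control arch (Col23a1, Col4a4, Col5a1, Col4a3, Col1a2, Col5a2, Col15a1 and Col4a5) and 1 lower (Col8a1), where 9.95% of all genes passed (5.41% higher and 4.55% lower), and 8 of 17 higher in the cKO arch (Col15a1, Col6a3, Col1a1, Col5a1, Col28a1, Col18a1, Col1a2 and Col23a1), where 10.9% passed (3.04% higher and 7.88% lower). Among the latter Col1a1 was at its free-RNA level, and with free RNA taken off 6 of 15 chains were higher in the cKO arch, where 29.2% of all genes passed. Col1a2, Col5a1, Col15a1 and Col23a1 were among the higher chains in the endothelium of both genotypes. Over the control arch and descending libraries Col1a2 averaged 125 CPM in endothelium and 46.6 CPM in lymphocytes. Its endothelial level was therefore not far above free RNA, whose part in its region difference was not tested. Col14a1 was not past the fold in any of these 6 comparisons. In the control comparisons region cannot be told apart from the presence of male cells in the arch library.

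The Spp1 10+ cells of the cKO arch library had 1.71% of their UMIs in collagen chains, against 0.719% in smooth muscle and 2.54% in fibroblasts of that library. Of these 317 cells, 127 reached the fibroblast marker sum alone, 48 the smooth muscle sum alone, 19 both and 123 neither. Col1a1 was at 4329.6 CPM in them, against 913 in smooth muscle and 5679 in fibroblasts of that library. Set beside smooth muscle of the same library, 17 of 29 chains were at least 2-fold higher and 2 lower, where 16.3% of all genes passed (9.48% higher and 6.83% lower), with a median of 1.27. The higher chains were Col10a1, Col2a1, Col8a2, Col11a1, Col12a1, Col5a3, Col16a1, Col8a1, Col1a1, Col27a1, Col1a2, Col6a3, Col5a2, Col4a4, Col4a3, Col6a1 and Col23a1. The lower chains were Col19a1 and Col18a1, the latter at -1.61 on the log2 scale.

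Col10a1 and Col2a1 had the largest ratios to smooth muscle. Col10a1 was at 74.2 CPM against 0.385, a log2 ratio of 7.48 (95% counting interval 6.46 to 9.05), and Col2a1, the main chain of cartilage fibrils, at 39.7 CPM against 0.641, 5.89 (95% counting interval 5.04 to 7.04). Both came from few cells, so their order is not read. Of the 374 Col10a1 UMIs 311 lay in 1 cell, 97.9% lay in 10 cells and 5.68% of Spp1 10+ cells held any, and of the 200 Col2a1 UMIs 43 lay in 1 cell and 83% lay in 10 cells. Col8a2, Col11a1, Col12a1, Col5a3 and Col16a1 had log2 ratios of 5.49, 4.90, 4.10, 3.87 and 3.05. These ratios are to smooth muscle alone, and all of these chains were also higher in fibroblasts than in smooth muscle. Col11a1, at 54.6 CPM, Col12a1, Col5a3 and Col16a1 were higher in fibroblasts of the cKO arch library than in its Spp1 10+ cells. Col8a2 was at 20.4 CPM in those fibroblasts, from 85 UMIs, near its level in Spp1 10+ cells, from 94 UMIs. Col8a1 had a UMI in 76% of Spp1 10+ cells.

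**Figure D5:**
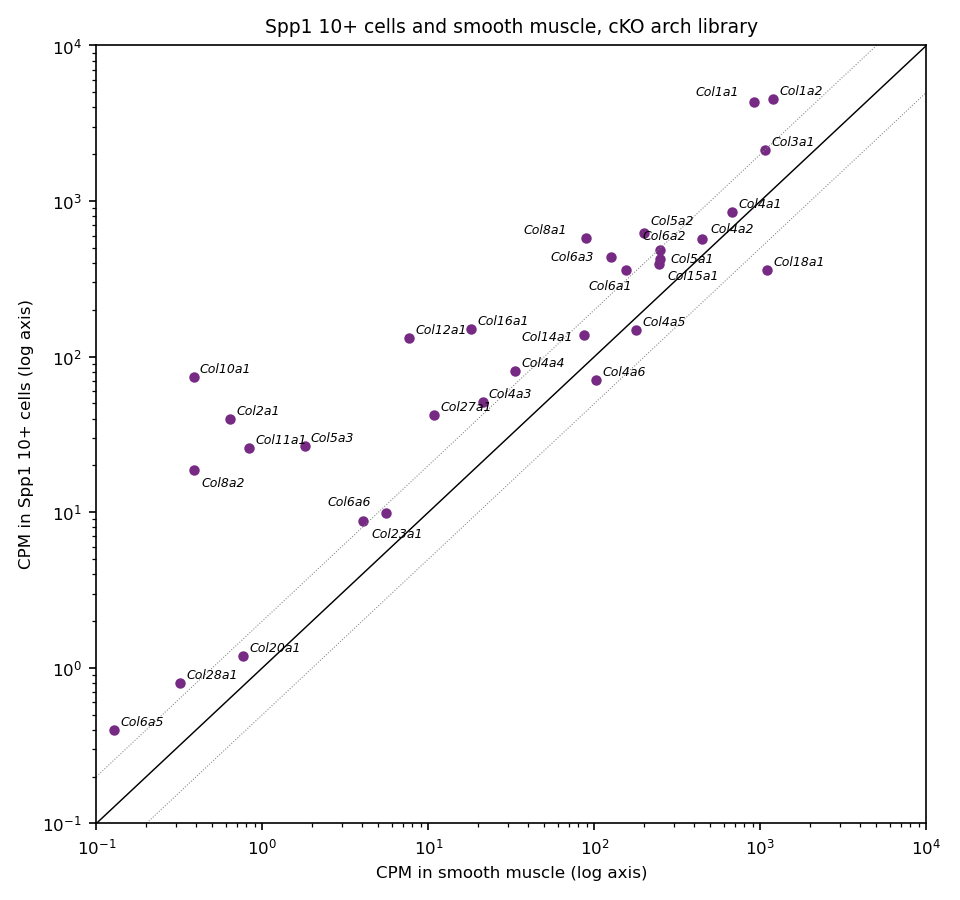
CPM of collagen chain genes in Spp1 10+ cells against smooth muscle of the cKO arch library, both on log axes; the solid line marks equal levels and the dotted lines 2-fold. Most chains lie above the line and Col18a1 lies below it; the Col10a1 point, furthest above, rests on 1 cell with 311 of its 374 UMIs.

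Within the Spp1 10+ cells, Col18a1 was at 168 CPM in the cells at the fibroblast sum alone, 277 CPM in those at neither sum and 826 CPM in those at the smooth muscle sum alone. Col10a1 had 332, 40 and 2 UMIs in these sets, and since 311 of the 332 lay in 1 cell no order is read from them. The cKO arch matrix counts a feature named RFP, and 132 Spp1 10+ cells had 16 or more of its UMIs against 146 with fewer than 8. Between them 1 of 27 chains was higher in the RFP-high cells (Col6a6) and 3 lower (Col2a1, Col12a1 and Col5a3), where 2.72% of all genes passed (1.72% higher and 1% lower). Of the 50 Col6a6 UMIs of Spp1 10+ cells 96% lay in 10 cells. In smooth muscle, with 383 and 690 such cells, Col6a6 (5.20, from 82 and 4 UMIs) and Col23a1 (1.44) of 24 chains were higher in RFP-high cells, where 3.02% of all genes passed (2.19% higher and 0.831% lower). Of the Col6a6 UMIs of cKO arch smooth muscle 54% lay in 10 cells.

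The enzymes that build collagen and the proteins that bind or degrade it were described beside the chains, as lists chosen with earlier results of these data known. The shares of all genes past each threshold, given again here, are what their counts are read against. Of 34 processing genes (prolyl and lysyl hydroxylases, chaperones, propeptide proteases and lysyl oxidases) 33 were tested between fibroblasts and smooth muscle, of which 14 were higher and 1 lower (16.1% and 11% of all genes). Among the higher ones were Pcolce, an enhancer of propeptide cleavage (4.96, adjusted p = 0.00062), and the prolyl hydroxylase subunit P4ha3 (4.25, adjusted p = 0.0011), and the lower one was P3h2 (-2.46). Of the 14 receptors and turnover genes 12 were tested, with 6 higher and 3 lower. The collagen-binding integrin subunit Itga11 (5.15, adjusted p = 0.00076) and Mmp2 (4.39, adjusted p = 0.00053) were higher in fibroblasts, and Itga1 (-1.84) was lower. In endothelium 4 of 33 processing genes were higher than in smooth muscle and 12 lower, where 17.4% of all genes were higher and 15.5% lower.

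In Schwann cells 1 of 32 processing genes was higher than in fibroblasts, P3h2, which modifies type IV collagen in particular, and 17 were lower (9.17% and 14.1% of all genes). Of their 11 receptors and turnover genes tested, 3 were higher (Ddr1, Itga1 and Itga2) and 5 lower. In mesothelial cells 2 of 33 processing genes were higher than in fibroblasts and 14 lower, and of 12 receptors and turnover genes 1 was higher and 8 lower (12.1% and 12% of all genes). Between genotypes 2 of 30 processing genes passed the fold in smooth muscle of the arch, where 12.7% of all genes did, and 0 of 30 in the descending aorta, where 1.19% did. In fibroblasts 6 of 31 passed in the arch and 0 of 31 in the descending aorta, where 13.1% and 1.4% of all genes did. Of the receptors and turnover genes 3 of 11 passed in smooth muscle of the arch (2 higher) and 2 of 10 in the descending aorta, both lower in cKO. In Spp1 10+ cells 8 of 29 processing genes and 8 of 12 receptors and turnover genes were higher than in smooth muscle and none lower, where 9.48% of all genes were higher. Among these, Mmp13, a collagenase of cartilage and bone, was at 34.1 against 0.192 CPM, Ctsk, which degrades collagen in lysosomes, at 194 against 15.1 CPM, and Mmp2 at 662 against 71.5 CPM.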

How the data were processed

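Cells of 4 aortic 10x 5′ libraries were sequenced, 1 per genotype and region. The deposited files hold raw UMI counts per gene and barcode from Cell Ranger on mm10, version 6.1.1 per the submitters' processing notes and 6.1.2 per the file headers, and no value was normalized by the authors. Genes were matched by Ensembl identifier, 27734 of them in all files. Barcodes with at least 500 genes and under 10% mitochondrial UMIs were kept (5438, 8002, 5579 and 4941 after doublet removal), and the highest Scrublet scores were removed at 0.8% per 1000 barcodes, since its automatic threshold marked 0.0856, 3.49, 2.08 and 0.903%.

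Classes were gates on marker UMI sums (64 for smooth muscle and fibroblasts, 16 for endothelium, Schwann and mesothelial cells, 4 for lymphocytes, 10 for Spp1), set after the sums were seen; mesothelial cells were allowed a high fibroblast sum, a departure from the design. Summed counts per class and library were compared with edgeR 4.0.16 (R 4.3.3, TMM, filterByExpr, quasi-likelihood, library as a block, Benjamini-Hochberg over all genes tested). The fits were also run on simulated counts with the same dispersion for every gene, which real counts need not have. At adjusted p under 0.05 they recovered 54 to 79% of 2-fold changes, with 54% in the Schwann and mesothelial designs. They recovered 99 to 100% of 4-fold changes, and 2.53 to 5.29% of calls were false. The p-values measure the spread between libraries, which differ in genotype and region, after edgeR's moderation over genes. In the Schwann fit that spread was 1 value shared by all genes. The Pi16 comparison and that of RFP in Spp1 10+ cells were added after the data were seen. Differences between single libraries are log2 ratios of CPM with 0.5 UMI added and exact 95% conditional intervals, which cover counting error only, with no test. Named chains are those past a threshold and the main chains of each collagen class. The members and lists were chosen with earlier results of these data known. Alternatives included DESeq2 1.42.0, other scalings, filters and gates, thinning to 3000 UMIs and leaving out each library.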

Additional observations from a re-analysis of the deposited data

Results flagged for a closer look

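4 chains had a cKO to control ratio of opposite sign in the arch and the descending aorta, with counting intervals that exclude 0 in both and at least 2-fold in one. With 1 library per group the difference between the regions was not tested.

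Col16a1 in fibroblasts had a log2 ratio of 1.05 in the arch against -0.33 in the descending aorta, a difference of 1.38. Col8a1 in endothelium had 1.76 and -0.25, a difference of 2.01, with 81.9% of its cKO arch UMIs in 10 of 107 cells. Col4a2 in endothelium had 1.39 and -0.29, a difference of 1.68, with 49.4% of its cKO arch UMIs in 10 of 107 cells. The other libraries held 29.0, 12.4 and 16.0% in 10 of 542, 814 and 585 cells. As 10 cells are unlike shares of these classes, the percentages are not compared. Col1a1 in endothelium had 0.49 and -1.22, a difference of 1.72, at levels under 3 times that of lymphocytes per cell in all 4 libraries.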

How the results depend on the processing

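Of the chains past a threshold, none changed sign under any alternative run. Leaving out each library gave 23 to 24 called chains between fibroblasts and smooth muscle (26 with all), 20 to 22 between endothelium and smooth muscle (21), 25 to 27 between Schwann cells and fibroblasts (27), 20 to 22 between mesothelial cells and fibroblasts (22), and 1 to 9 between the Pi16 sets (1), the 9 being without cKO arch. In the same order, those fits called 23.4 to 28.2%, 29.0 to 32.5%, 19.1 to 22.1%, 18.4 to 25.3% and 1.10 to 4.16% of all genes. The Pi16 count was 4 with DESeq2 and 8 with no low-count filter, where 3.96% and 3.35% of all genes were called. With no library block the Col8a1 calls were lost in fibroblasts (adjusted p = 0.089) and endothelium (0.16) by edgeR. The fibroblast call of Col20a1 was lost with no library block (0.057) and in the joint fit (0.12). It fell under the fold with no low-count filter, no doublet removal and higher marker sums. That of Col4a3 was lost with 1000 genes and 5% mitochondrial UMIs (0.051), and the endothelial one with no doublet removal (0.052). With no doublet removal the Schwann Col11a1 call was lost at 0.98 on the log2 scale. Of the other Schwann calls, the joint fit of all classes lost Col4a3 (adjusted p = 0.15), Col4a4 (0.10) and Col5a1 (0.18), and the fit with no library block lost Col5a1 (0.051), Col5a2 (0.065) and Col6a5 (0.11). Mesothelial Col8a2 was lost with DESeq2 (0.069) and with total UMIs (0.070). Total UMIs in place of TMM moved the median of all genes by 0.16 in endothelium, 0.37 in Schwann cells and 0.13 in mesothelial cells on the log2 scale, and changed the Schwann split from 9 higher and 18 lower to 11 and 16.

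Counts by size depended most on the minimum of UMIs and the fold. With no minimum of UMIs, the cKO against control counts became 14 in smooth muscle, 19 in fibroblasts and 17 in endothelium of the arch (6, 9 and 8 in the report), and 8, 14 and 10 in the descending aorta (1, 2 and 2). The arch against descending counts became 18, 17 and 18 in control (8, 9 and 9) and 14, 21 and 20 in cKO (4, 9 and 8), and the RFP counts 12 in smooth muscle and 14 in Spp1 10+ cells (2 and 4). For smooth muscle and fibroblasts between regions, 18.7 and 20.1% of all genes then passed in control and 29.4 and 28.5% in cKO. With 1.5-fold the genotype counts were 14, 18 and 14 in the arch and 5, 9 and 8 in the descending aorta, the region counts 19 in control fibroblasts, 15 in control endothelium, 9 in cKO smooth muscle and 14 in cKO fibroblasts, and the RFP smooth muscle count 6, which was 0 with at least 100 UMIs. Of all genes, 26.4, 27.9 and 25.7% passed 1.5-fold between arch genotypes and 5.0, 5.27 and 10.2% between descending ones. Between regions 15.7% passed in control fibroblasts, 25.8% in cKO smooth muscle and 28.2% in cKO fibroblasts. Thinning gave 5 for control smooth muscle between regions, 4 for cKO endothelium between regions and 4 for descending fibroblasts between genotypes. Of all genes, 5% passed in the thinned control smooth muscle comparison and 0.978% in the thinned fibroblast one. With free RNA taken off, endothelium had 13 between arch genotypes, where 30.0% of all genes passed, and 14 between control regions. With 1000 genes and 5% mitochondrial UMIs, descending endothelium had 5 between genotypes, where 2.13% of all genes passed. The cause was not tested. Counts given here with no share of all genes beside them are not read as results about the chains. No paired analysis was possible because each group is 1 library; library was itself the block in the class comparisons. Schwann cells (34 to 55 per library) and cKO arch endothelium (107 cells) limit what depth can show.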
